A study of Mus musculus with 12 samples.

Results

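The mouse Fibrosis V2 panel holds 43 genes whose symbols mark them as chemokines, chemokine receptors, interleukins, interleukin receptor chains, tumour necrosis factor (TNF) family members, interferon genes or colony stimulating factors. The 21 described here were chosen by symbol alone, as those left when 22 others, such as Ccl2, Ccr2, Il6, Tnf and Ifng, are set aside. They are 21 of the 760 genes measured. By role they are 1 chemokine ligand (Cxcl11), 5 chemokine receptors (Ccr1, Ccr4, Cxcr1, Cxcr3, Cxcr4), 6 interleukins (Il4, Il11, Il13, Il17a, Il27, Il33), 6 interleukin receptor chains (Il1r1, Il1rap, Il2ra, Il6st, Il10ra, Il18r1), 1 TNF receptor (Tnfrsf17) and 2 TNF ligands (Tnfsf10, Tnfsf14). No measured value entered the choice.

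The mice were FVB/N females, 3 on each diet, and the labels give no genetic change or further treatment. From an age of 3 weeks they received 2920X (Teklad Global), the low-fat chow, or 58Y1 (Test Diet), the high-fat one, over a period of 16 weeks. Mammary glands were digested with collagenase and trypsin, and live cells with the white blood cell protein CD45 and the myeloid protein CD11b were sorted by CD34, a surface protein of progenitor cells. CD34- and CD34+ cells of each diet made 4 groups of 3 samples. The labels call the CD34+ cells myeloid progenitors and the CD34- cells monocytes and macrophages, and the study asked how obesity altered gene expression in them. RNA was amplified by a low-input protocol and counted with barcoded probes on the nCounter.

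Chemokines draw white blood cells that carry the matching receptor into tissue. Interleukins and TNF ligands are messages between immune cells, read by receptor chains that usually work in pairs: Il2ra raises the affinity of the interleukin-2 receptor, Il1rap joins the receptors for interleukin-1 and interleukin-33, and Il6st (gp130) serves the receptors for interleukin-6, interleukin-11 and interleukin-27. Many interleukin receptors signal through Jak kinases and Stat factors, while the interleukin-1, interleukin-18 and TNF receptors lead to NF-kB. In fat-rich tissue such as the mammary gland these signals pass between macrophages, lymphocytes, stromal cells and fat cells.

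Values are the deposited log2 values, so that 1 unit is a doubling, and levels are compared between samples of 1 gene and never between genes, whose probes differ. Total counts ran from 78316 in low-fat CD34- replicate 3 to 780070 in high-fat CD34+ replicate 3. That shallow library and high-fat CD34+ replicate 2, in which the summed level of 6 fibroblast genes was 5161 against 602 and 754 in the other samples of its group, stand apart. Ptprc, the gene of CD45, was at 10.98 ± 0.20 (SD, n = 3) or higher in each group. High-fat CD34- cells had more of it than high-fat CD34+ cells, with a log2 difference of 0.87 ± 0.19 (SE, limma adjusted p = 0.0209), a call that ended after re-centring on sample medians (0.59, adjusted p = 0.107) or without high-fat CD34- replicate 1 or 2 or high-fat CD34+ replicate 3 (0.79 to 0.89, adjusted p 0.0797 to 0.106). Its low-fat difference was 0.42 ± 0.19 (adjusted p = 0.19, or 0.04 with the mouse as a block). On the low-fat diet Cd34 was lower in the CD34- sort, by -1.68 ± 0.49 (adjusted p = 0.0475, a call lost in 15 of 23 alternative settings), and the difference of -0.34 ± 0.49 on the high-fat diet did not pass (adjusted p = 0.707). Itgam, which encodes CD11b, was not analysed here. Macrophage genes (4 of a list of 10 were in the table) and T and NK cell genes (16 of 24) both had counts in every group. The lowest was 1, for Eomes in a low-fat CD34+ sample. No probe background was estimated here, so a low count does not show that a gene was present. A higher level in a mixture of cells can come from more cells of a type or more RNA per cell, which cannot be told apart.

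Of the 21 genes, 16 reached 20 or more on the linear scale in 3 or more samples and were tested with limma among 594 genes. Of these, 9 were at or above that value in all 12 samples and 7 in 3 to 8 samples. The high-fat population comparison gave the calls: Il18r1, Cxcr3, Il2ra and Cxcr4 were higher in CD34- cells, by 4.04-, 3.02-, 2.75- and 1.91-fold, and 0 were lower. These are 4 of 16 (6 at an unadjusted p under 0.05, where 23.6% of all genes were), where 8.92% of all 594 genes passed in either direction and 6.9% were higher. The median log2 difference was 0.61 for the 16 genes and 0.21 for all 594. On the low-fat diet 0 of 16 passed, with 1 at an unadjusted p under 0.05, where 9.76% of all genes passed and 22.7% had such a p. The diet comparison called 0 of 16 in CD34+ cells (3 at an unadjusted p under 0.05, against 2.36% and 17.5% of all genes) and 0 of 16 in CD34- cells (1 at an unadjusted p under 0.05, against 5.05% and 21.9%). The comparisons share samples and are not independent of each other. The p-values rest on 1 spread per gene, pooled over the 4 groups of 3 samples and drawn toward the trend of all genes. Same-numbered samples of a diet resembled each other more than other samples did. They were taken as samples of 1 mouse, which the labels do not state outright. A population difference of 1 of the 16 genes is therefore also given with this number, called the mouse, as a block where that changes its call.

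**Figure D1:**
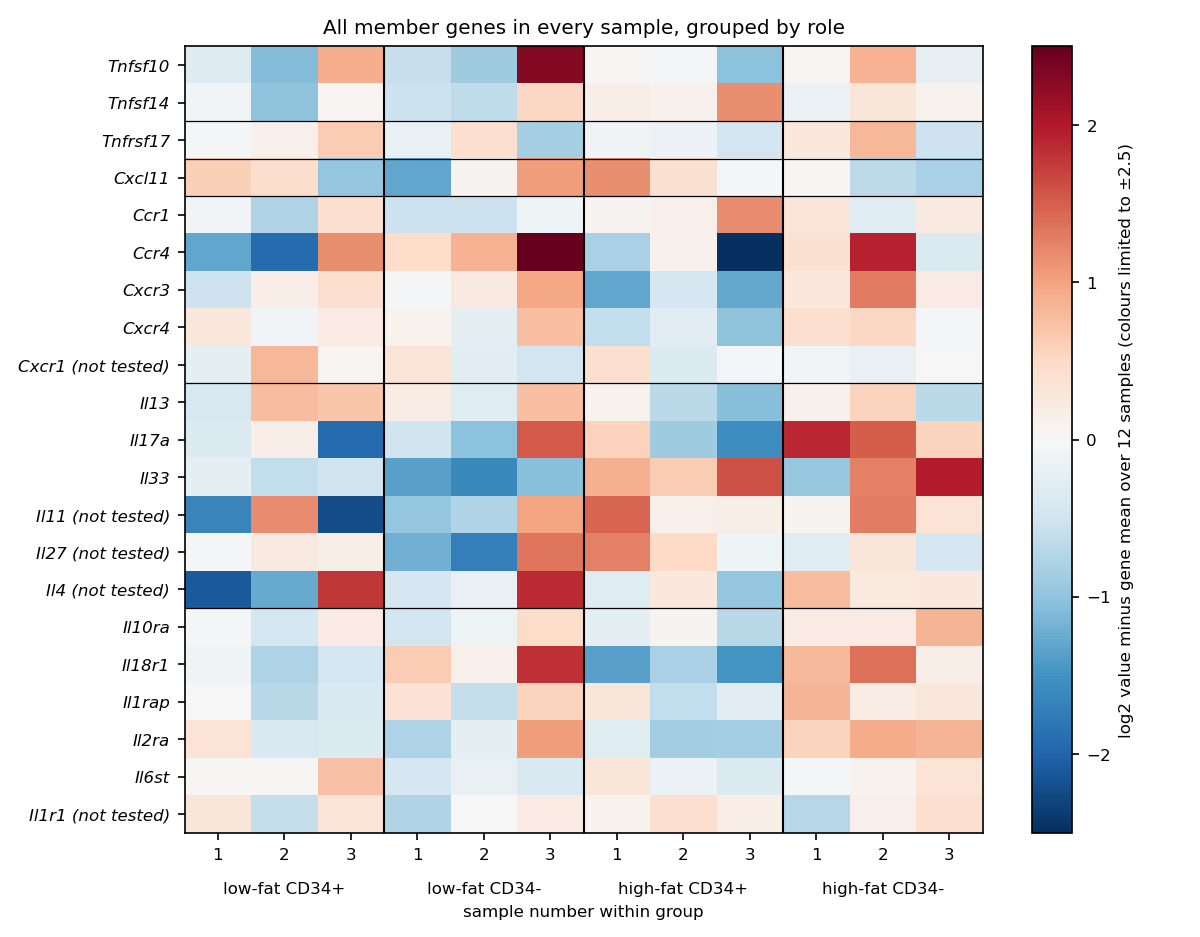
Heat map of all 21 genes (rows, by role) in the 12 samples (columns, by group and replicate). The 5 genes that were not tested are marked. Colours give the log2 value minus the gene's mean over all samples and are limited to ±2.5. Il18r1, Cxcr3, Il2ra and Cxcr4 are low in the 3 high-fat CD34+ samples, and Il33 is high in 5 of the 6 high-fat samples.

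Among the chemokine receptors, Cxcr3 binds interferon-induced chemokines such as Cxcl10 and Cxcl11 and is carried mainly by activated T cells and NK cells. Its log2 values were 5.97, 7.0 and 5.90 in high-fat CD34- replicates 1, 2 and 3 and 4.40, 5.28 and 4.41 in high-fat CD34+ replicates 1, 2 and 3. They were 5.68, 5.92 and 6.66 in low-fat CD34- cells and 5.18, 5.86 and 6.11 in low-fat CD34+ cells. The high-fat groups did not overlap, while the low-fat groups did, and the high-fat CD34+ samples included the lowest values of all. The difference between populations was 1.60 ± 0.43 (SE, n = 3 per group, limma adjusted p = 0.0413) on the high-fat diet, with same-numbered differences of 1.57, 1.73 and 1.49. On the low-fat diet it was 0.37 ± 0.43, with a 95% interval of -0.57 to 1.30, which overlaps the high-fat interval of 0.66 to 2.53. Tested directly in limma, the difference between the diets did not pass (1.23 ± 0.61, adjusted p = 0.582).

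Cxcr4, the receptor of Cxcl12, which holds progenitors in the bone marrow and guides many white blood cells, had values of 11.03, 11.14 and 10.59 in high-fat CD34- cells and 9.999, 10.33 and 9.62 in high-fat CD34+ cells. In low-fat cells it stood at 10.71, 10.37 and 11.36 (CD34-) and at 10.89, 10.55 and 10.82 (CD34+). The 3 high-fat CD34+ samples were lower than each of the other 9. The low-fat difference between populations was 0.06 ± 0.28 with an interval of -0.53 to 0.65. Counts recovered from the deposited values, not scaled for depth, were 1528 to 2319 in high-fat CD34- against 1019 to 1923 in high-fat CD34+ cells. On the high-fat diet Cxcr4 was higher in CD34- cells, by 0.94 ± 0.28 (adjusted p = 0.0499). The call lies at the threshold: it ended when each sample was re-centred on its median (0.65, adjusted p = 0.113), which takes 0.28 off every gene's difference in this comparison, and held in the same scaling in the blocked fit (adjusted p = 0.0252).

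Ccr4, a receptor of Ccl17 and Ccl22 found on helper and regulatory T cells, had values of 5.45, 5.86 and 7.66 in low-fat CD34- cells and 3.68, 3.06 and 6.16 in low-fat CD34+ cells. On the high-fat diet the values were 5.37, 6.92 and 4.62 against 4.18, 5.09 and 1.83. The groups overlapped on both diets and spread widely, but in each of the 6 same-numbered pairs the CD34- sample was higher, by 1.76, 2.81 and 1.50 on the low-fat and 1.19, 1.83 and 2.79 on the high-fat diet. Without a block the differences of 2.02 ± 0.96 and 1.94 ± 0.96 did not pass (adjusted p = 0.229 and 0.244). With the mouse as a block both passed (SE 0.62, adjusted p = 0.0281 on the low-fat and 0.0356 on the high-fat diet), where 22.1% and 23.9% of all genes passed. The high-fat call with the block ended when samples were also re-centred (1.66, adjusted p = 0.0565). Counts were low, at 4 in low-fat CD34+ replicate 2 (95% exact Poisson interval 1.09 to 10.2) and 7 in high-fat CD34+ replicate 3 (2.81 to 14.4), and such intervals cover counting error only.

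Ccr1, a receptor of Ccl3 and Ccl5 on monocytes and neutrophils, ranged from 7.06 to 9.0 and passed in 0 of the 5 comparisons. Its population differences were -0.38 ± 0.36 on the high-fat and -0.25 ± 0.36 on the low-fat diet. Cxcr1, whose human counterpart binds the neutrophil chemokine interleukin-8, was not tested and ranged from 3.43 to 4.76, with 3 to 31 counts. Cxcl11, the only ligand among the chemokine genes kept, is induced by interferon and binds Cxcr3. Its values were 2.49, 3.86 and 4.85 in low-fat CD34-, 4.40, 4.23 and 2.82 in low-fat CD34+, 3.85, 3.14 and 2.99 in high-fat CD34-, and 4.96, 4.17 and 3.77 in high-fat CD34+ samples. On the high-fat diet the CD34- sample was lower in 3 of 3 pairs, opposite in sign to its receptor, but the difference of -0.97 ± 0.64 did not pass (adjusted p = 0.378).

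**Figure D2:**
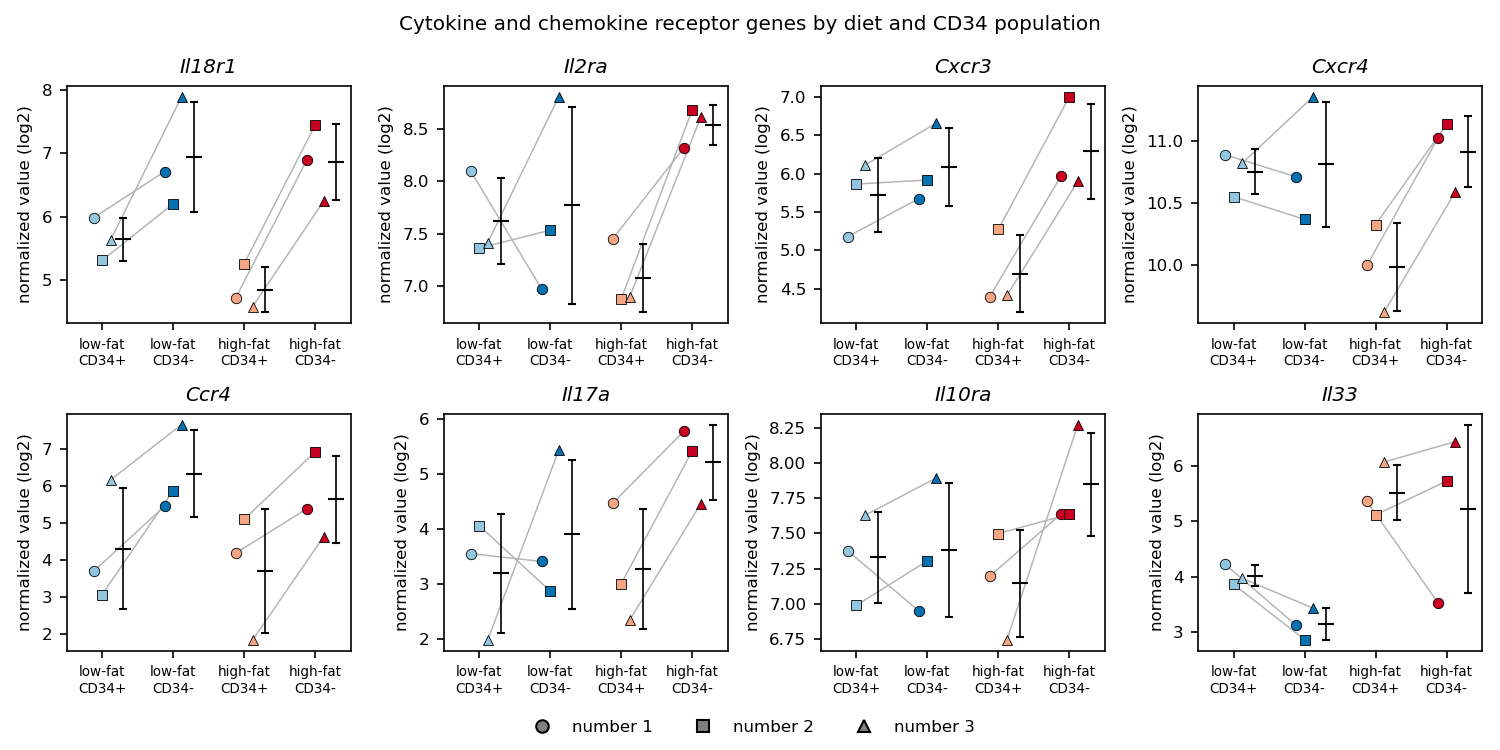
Log2 value in every sample, by group of diet and population, for the genes with a call in any comparison and others with small p-values. Grey lines join same-numbered samples of a diet, and black marks with bars give the group mean ± SD. The high-fat CD34+ samples lie below the high-fat CD34- samples without overlap for Il18r1, Cxcr3, Il2ra, Cxcr4 and Il10ra.

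Among the interleukin receptor chains, Il18r1, the chain that binds interleukin-18 and is typical of NK and helper T cells, gave the clearest separation. It stood at 6.89, 7.44 and 6.24 in high-fat CD34- cells and at 4.71, 5.25 and 4.57 in high-fat CD34+ cells. In low-fat cells it stood at 6.71, 6.20 and 7.89 (CD34-) and at 5.98, 5.30 and 5.63 (CD34+). The populations did not overlap on either diet, and all 6 same-numbered pairs had the CD34- sample higher, by 2.18, 2.19 and 1.67 on the high-fat and 0.73, 0.90 and 2.27 on the low-fat diet. On the high-fat diet it was higher in CD34- cells by 2.01 ± 0.45 (adjusted p = 0.0214), with group means of 6.86 ± 0.60 (SD) and 4.84 ± 0.36. The low-fat difference of 1.30 ± 0.45 did not pass without a block (adjusted p = 0.087) and did once the mouse was a block (SE 0.34, adjusted p = 0.0122), where 6.23% of all genes were higher. It also passed without a block after re-centring (1.34, adjusted p = 0.0317). Over 23 alternative settings the low-fat difference ran from 0.82 to 1.66 and passed in 5, with limma adjusted p up to 0.273.

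Il2ra (CD25), which marks regulatory and recently activated T cells, was at 8.31, 8.68 and 8.61 in high-fat CD34- cells and at 7.45, 6.88 and 6.90 in high-fat CD34+ cells. In low-fat CD34- cells it was at 6.97, 7.53 and 8.80 and in low-fat CD34+ cells at 8.10, 7.36 and 7.41. The high-fat CD34- samples were tight and above every high-fat CD34+ sample, whereas the low-fat groups overlapped and their pairs pointed both ways (-1.13, 0.17 and 1.39). The gene was higher in high-fat CD34- cells by 1.46 ± 0.40 (adjusted p = 0.0413). Recovered counts, not scaled for depth, were 278 to 588 against 174 to 235. The low-fat difference was 0.15 ± 0.40, with an interval of -0.72 to 1.01.

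Il10ra, the ligand-binding chain of the interleukin-10 receptor and widely carried by white blood cells, was at 7.64, 7.64 and 8.28 in high-fat CD34- cells and at 7.20, 7.50 and 6.74 in high-fat CD34+ cells. Low-fat values were 6.95, 7.30 and 7.89 in CD34- and 7.38, 6.99 and 7.63 in CD34+ cells. The high-fat groups did not overlap, yet the difference of 0.71 ± 0.33 did not pass (adjusted p = 0.211, or 0.0677 with the mouse as a block). In all, 5 of the 16 genes were separated in this direction on the high-fat diet (Il18r1, Cxcr3, Il2ra, Cxcr4 and Il10ra), where 23.4% of all genes were, and 0 in the other, where 8.42% were. Il1rap ranged from 4.76 to 6.30 and Il6st from 6.61 to 7.76, and neither passed in any of the 5 comparisons. Il6st was lower in low-fat CD34- than CD34+ cells in 3 of 3 pairs and without overlap, but its difference of -0.59 ± 0.29 did not pass (adjusted p = 0.25). Of the 16 genes Il6st and Il33 were lower there without overlap, against 18.9% of all genes, and Il18r1 was higher, against 6.23%. Il1r1, the signalling receptor of interleukin-1, was not tested and ranged from 2.49 to 3.67, with 3 to 21 counts.

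**Figure D3:**
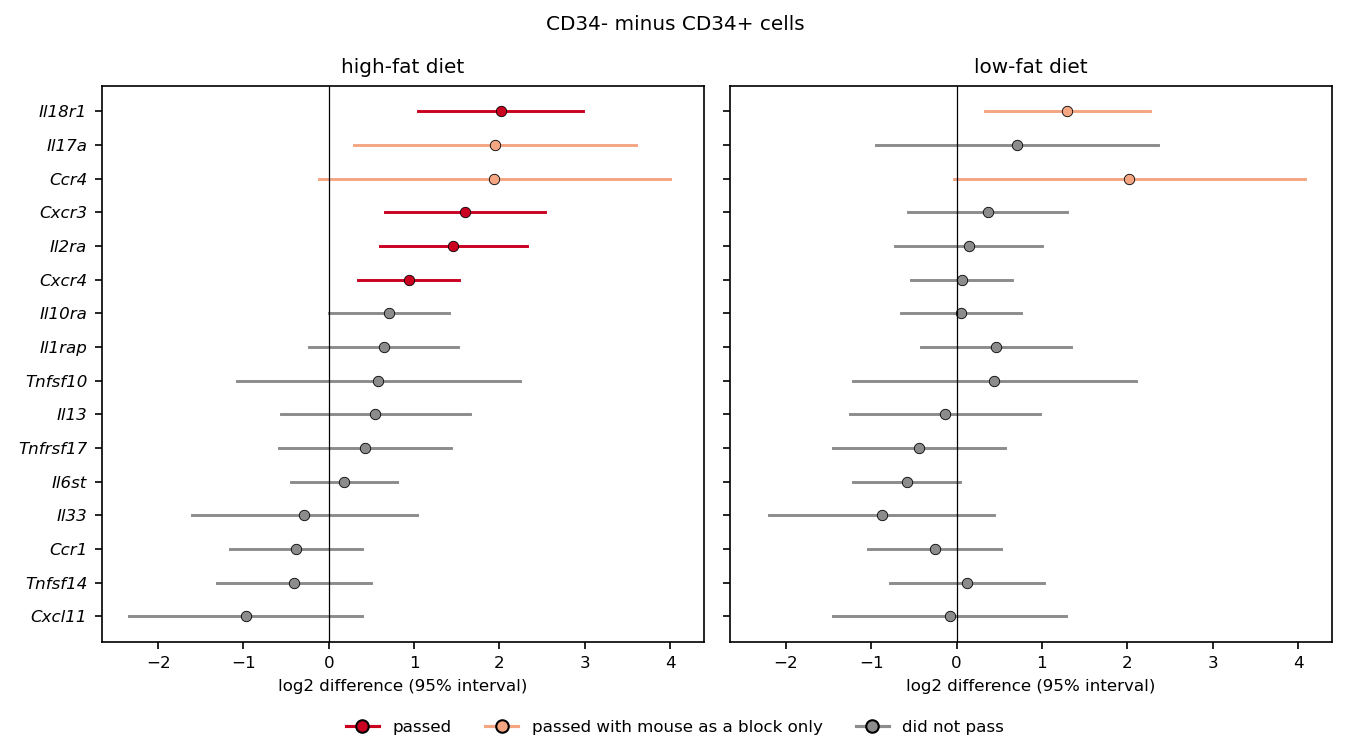
CD34- minus CD34+ log2 difference with its 95% interval from limma for the 16 tested genes, on the high-fat and the low-fat diet. Il18r1, Cxcr3, Il2ra and Cxcr4 passed on the high-fat diet without a block. Ccr4 passed on both diets, Il17a on the high-fat diet and Il18r1 on the low-fat diet with the mouse as a block only.

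The promoters of the 4 genes called together on the high-fat diet, and of Ccr4, are shown so that the letters at their starts can be set beside their shared direction. They are windows of 300 bases around the RefSeq start in build GRCm38.p6, written 5′ to 3′ on the gene's strand, with motif matches in capitals. The motifs searched on both strands were the NF-kB site by name, the Stat site GAS (TTCNNNGAA), the interferon site ISRE by name and the AP-1 site (TGANTCA). RefSeq gives 3 starts for Il18r1, and the one with a match is shown.
Il18r1, chr1:40465756-40466055, plus strand: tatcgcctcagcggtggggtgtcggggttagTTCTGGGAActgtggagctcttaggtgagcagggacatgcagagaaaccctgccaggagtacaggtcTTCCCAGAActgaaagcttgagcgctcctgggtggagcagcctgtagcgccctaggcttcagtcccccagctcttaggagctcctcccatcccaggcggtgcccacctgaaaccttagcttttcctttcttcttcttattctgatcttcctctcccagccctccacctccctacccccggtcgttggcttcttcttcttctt
Cxcr3, chrX:101734098-101734397, minus strand: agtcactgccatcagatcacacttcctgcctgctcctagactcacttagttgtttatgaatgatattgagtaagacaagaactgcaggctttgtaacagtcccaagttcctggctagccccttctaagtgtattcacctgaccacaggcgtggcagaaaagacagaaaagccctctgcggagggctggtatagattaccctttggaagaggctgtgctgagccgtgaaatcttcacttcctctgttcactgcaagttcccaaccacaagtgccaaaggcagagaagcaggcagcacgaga
Il2ra, chr2:11642542-11642841, plus strand: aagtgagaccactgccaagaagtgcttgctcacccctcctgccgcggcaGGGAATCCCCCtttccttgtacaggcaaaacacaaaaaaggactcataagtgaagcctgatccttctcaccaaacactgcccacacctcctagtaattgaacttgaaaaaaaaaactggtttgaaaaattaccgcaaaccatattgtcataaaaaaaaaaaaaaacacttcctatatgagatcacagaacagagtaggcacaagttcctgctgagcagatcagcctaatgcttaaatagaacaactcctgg
Cxcr4, chr1:128592250-128592549, minus strand: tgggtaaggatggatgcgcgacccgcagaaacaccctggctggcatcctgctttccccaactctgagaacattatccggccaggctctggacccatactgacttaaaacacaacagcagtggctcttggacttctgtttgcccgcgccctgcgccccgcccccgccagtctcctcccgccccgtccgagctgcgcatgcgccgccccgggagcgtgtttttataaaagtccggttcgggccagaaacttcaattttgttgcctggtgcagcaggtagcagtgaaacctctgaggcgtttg
Ccr4, chr9:114496495-114496794, minus strand: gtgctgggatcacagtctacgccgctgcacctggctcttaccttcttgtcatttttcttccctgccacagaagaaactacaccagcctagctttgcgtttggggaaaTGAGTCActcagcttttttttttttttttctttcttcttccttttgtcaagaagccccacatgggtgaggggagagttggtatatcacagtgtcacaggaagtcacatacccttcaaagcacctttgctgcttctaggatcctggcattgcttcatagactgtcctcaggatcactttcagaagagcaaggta
The Il18r1 window held 2 GAS matches, at bases 32 to 40 and 99 to 107. The Il2ra window held 2 overlapping NF-kB matches at bases 50 to 60, and the Ccr4 window an AP-1 match at bases 108 to 114. The Cxcr3 and Cxcr4 windows held 0 matches to these motifs, so no motif was shared by the 4 genes. Of 32851 mouse promoter windows of this length 8.3% held a GAS match, 8.46% an NF-kB match, 3.44% an ISRE match and 7.81% an AP-1 match. A match is a run of letters and not a shown site of binding. Of the 21 genes 18 had a window in the RefSeq table.

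Among the interleukins, Il17a, the cytokine of Th17 and gamma delta T cells, had values of 5.78, 5.42 and 4.45 in high-fat CD34- cells and 4.47, 3.00 and 2.34 in high-fat CD34+ cells. Low-fat values were 3.41, 2.86 and 5.43 in CD34- and 3.55, 4.06 and 1.97 in CD34+ cells. The high-fat CD34- sample was higher in 3 of 3 pairs, by 1.31, 2.42 and 2.11, and the groups overlapped by 1 sample. The gene reached the minimum of 20 in 5 samples, 3 of them the high-fat CD34- samples, and would not have been tested without that group. Counts were 57, 29 and 33 against 22, 12 and 10. The difference of 1.95 ± 0.77 did not pass without a block (adjusted p = 0.135), passed with the mouse as a random block (adjusted p = 0.0449) and did not pass with the mouse as a fixed term (0.0643) or with the block and re-centring (0.0907). The low-fat pairs pointed both ways, at -0.14, -1.19 and 3.46.

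Il33, an alarm cytokine stored in the nuclei of stromal, endothelial and epithelial cells, had its largest differences between diets. Its values were 3.13, 2.86 and 3.43 in low-fat CD34- and 4.23, 3.86 and 3.97 in low-fat CD34+ samples. On the high-fat diet they were 3.53, 5.73 and 6.44 in CD34- and 5.36, 5.12 and 6.07 in CD34+ samples. In both populations each high-fat sample was above each low-fat sample. The high-fat minus low-fat difference was 2.09 ± 0.61 in CD34- cells (4.26-fold, adjusted p = 0.0657) and 1.50 ± 0.61 in CD34+ cells (2.82-fold, adjusted p = 0.218), and neither passed. Without high-fat CD34- replicate 1, whose 12 counts were the fewest on that diet, the CD34- difference was 2.94 and passed (adjusted p = 0.00994). The gene was tested only because of the high-fat samples, since no low-fat sample reached the minimum of 20, and low-fat CD34- samples held 14, 10 and 3 counts. Genes of fibroblasts and endothelial cells also had higher summed levels in high-fat than in low-fat CD34- cells. The sums were 186 to 304 against 54.6 to 93.7 for 6 fibroblast genes, of which 5 had higher means. For 4 endothelial genes, all with higher means, they were 295 to 441 against 127 to 245. The sum over 4 macrophage genes, all with higher means, was likewise 4757 to 7564 against 2343 to 2638. Of all 594 genes, 463 had a positive difference in this comparison. Of 4 fat cell genes, Fabp4, which macrophages also express, was at 9.86 ± 0.35 (SD) against 7.11 ± 0.75 and Adipoq at 4.34 ± 0.62 against 3.35 ± 1.30, while Plin4 stood at 3.56 ± 0.30 against 4.18 ± 0.42 and Lep at 2.03 ± 0.51 against 2.16 ± 0.91. Their part in the Il33 values was not tested, and 0 of 6 epithelial genes were in the table.

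Il13, a type 2 cytokine, was at 4.27, 3.79 and 4.85 in low-fat CD34-, 3.68, 4.86 and 4.78 in low-fat CD34+, 4.19, 4.65 and 3.41 in high-fat CD34- and 4.18, 3.42 and 3.02 in high-fat CD34+ samples, and passed in no comparison. The other type 2 cytokine, Il4, and Il11 and Il27, which signal through Il6st, were not tested. Il4 ranged from 1 to 22 counts, Il11 from 1 to 10 and Il27 from 3 to 17. No difference between groups was tested for them at this depth.

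The 2 TNF ligands and the TNF receptor passed in no comparison. Tnfsf14 (LIGHT), a ligand of lymphocytes and monocytes, was at 5.84, 5.73 and 6.89 in low-fat CD34-, 6.31, 5.38 and 6.42 in low-fat CD34+, 6.23, 6.67 and 6.45 in high-fat CD34- and 6.55, 6.48 and 7.54 in high-fat CD34+ samples. The high-fat CD34+ samples lay above the low-fat CD34+ samples, by a difference of 0.82 ± 0.42 (adjusted p = 0.334). Tnfsf10 (TRAIL), which triggers cell death, was at 3.57, 3.24 and 6.43, then 3.81, 3.06 and 5.04, 4.19, 5.02 and 3.93, and 4.18, 4.12 and 3.11 in the same order of groups, and its within-group SD reached 1.76. Tnfrsf17 (BCMA), a receptor of plasma cells, was at 4.07, 4.67 and 3.43, then 4.23, 4.38 and 4.90, 4.53, 5.08 and 3.73, and 4.18, 4.12 and 3.77. Its high-fat CD34+ samples lay below the low-fat CD34+ ones, by -0.48 ± 0.47 (adjusted p = 0.641).

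The diet comparison in each population asked how the high-fat diet moved these genes. In CD34+ cells Cxcr4 had a high-fat minus low-fat difference of -0.78 ± 0.28 (adjusted p = 0.167), Cxcr3 of -1.02 ± 0.43 (adjusted p = 0.238) and Il18r1 of -0.79 ± 0.45 (adjusted p = 0.387), none of which passed. The high-fat and low-fat CD34+ samples did not overlap for 3 genes that were lower on the high-fat diet (Cxcr4, Il18r1 and Tnfrsf17), where 11.4% of all genes were lower without overlap, and for 2 that were higher (Il33 and Tnfsf14), where 8.42% were. Without low-fat CD34- replicate 3 and high-fat CD34+ replicate 2 together, Cxcr4 was at -0.95 and passed (adjusted p = 0.0395). In CD34- cells the groups did not overlap for Il33 and Il6st, both higher on the high-fat diet, where 28.3% of all genes were. For 0 genes were they lower without overlap, where 0.673% of all genes were. The median difference of all genes there was 0.35, close to the 0.31 of the 16 genes, and re-centring took Il33 to 1.78 (adjusted p = 0.189). Il2ra had a difference of 0.77 ± 0.40 in CD34- cells (adjusted p = 0.291) and passed without low-fat CD34- replicate 3 (1.28, adjusted p = 0.0369).

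**Figure D4:**
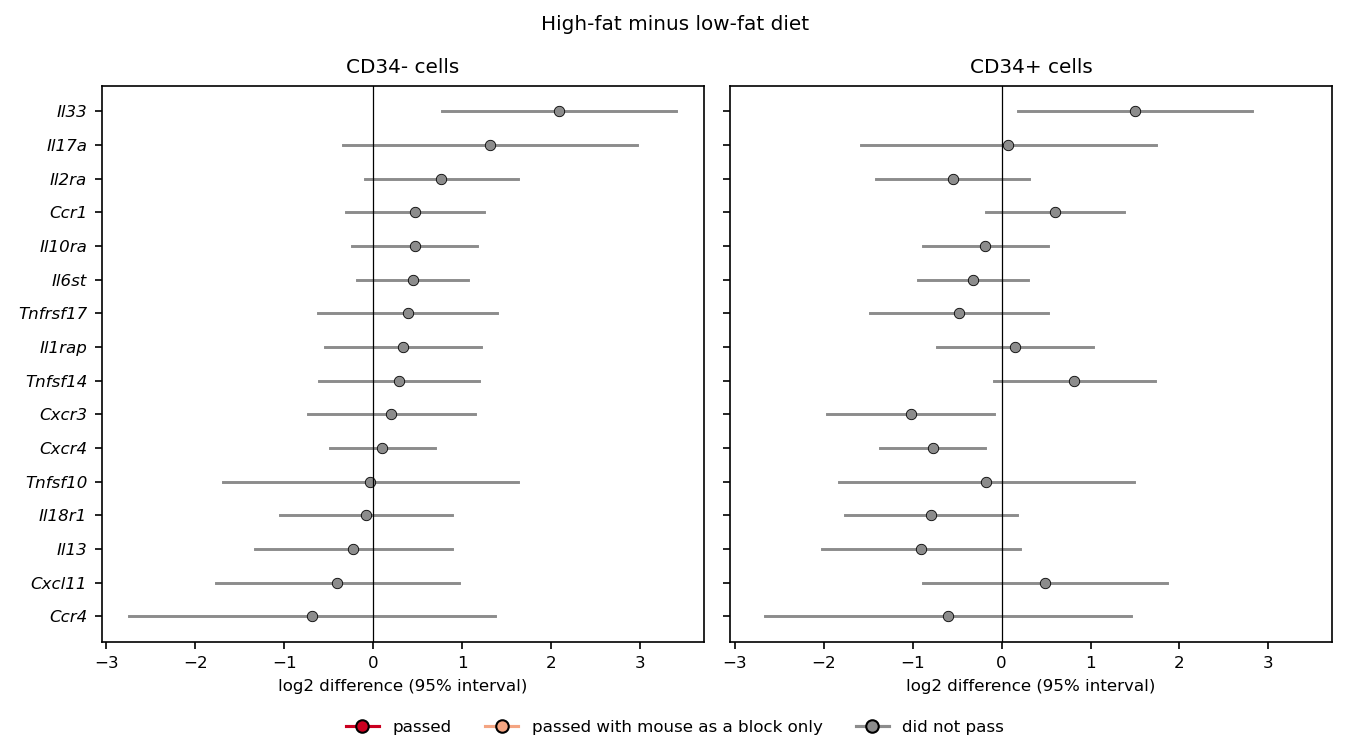
High-fat minus low-fat log2 difference with its 95% interval from limma for the 16 tested genes, in CD34- and in CD34+ cells. None passed, and Il33 lies farthest to the right in both panels, at 2.09 and 1.50.

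That the population difference passed on the high-fat and not on the low-fat diet does not show that it differed between diets. Tested directly, the difference between the diets in the CD34- minus CD34+ difference passed for 0 of 16 genes, with 2 at an unadjusted p under 0.05, and limma called 0 of all 594, with 8.75% at an unadjusted p under 0.05. The values were 1.32 ± 0.57 for Il2ra (adjusted p = 0.546), 0.88 ± 0.39 for Cxcr4 (adjusted p = 0.556), 1.23 ± 0.61 for Cxcr3 (adjusted p = 0.582) and 0.72 ± 0.64 for Il18r1 (adjusted p = 0.796). Their median over the 16 genes was 0.67 and over all genes 0.36. For Ccr4 the value was -0.08 ± 1.35, with an interval of -2.99 to 2.82.

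The 4 calls depended on single libraries. Without high-fat CD34- replicate 1, high-fat CD34- replicate 2 or high-fat CD34+ replicate 3, limma called 0 of the 16 genes and 0, 1 and 5 of all 594. The Il18r1 call ended without any one of these 3 libraries, at differences of 1.72 to 2.0 (adjusted p 0.0894 to 0.107). The Cxcr3 and Il2ra calls each ended without any one of 7 libraries and the Cxcr4 call without any one of 8. In those fits Cxcr3 was at 1.24 to 1.76 (adjusted p 0.0501 to 0.191), Il2ra at 1.36 to 1.57 (0.0501 to 0.153) and Cxcr4 at 0.76 to 0.95 (0.0545 to 0.22). Low-fat libraries enter these fits because the spread of each gene is pooled over the 4 groups. Besides the 3 libraries above, Cxcr3, Il2ra and Cxcr4 all lost the call without low-fat CD34+ replicate 1 or 2. Cxcr3 and Cxcr4 also lost it without low-fat CD34- replicate 1 or high-fat CD34+ replicate 1, Cxcr4 without low-fat CD34+ replicate 3, and Il2ra without high-fat CD34- replicate 3 or high-fat CD34+ replicate 2. With the mouse as a block all 4 passed, at adjusted p = 0.000875 for Il18r1, 0.00171 for Cxcr3, 0.0031 for Cxcr4 and 0.00648 for Il2ra. They also passed with both libraries that stand apart left out, at 2.22, 1.89, 1.11 and 1.36 for Il18r1, Cxcr3, Cxcr4 and Il2ra.

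Genes of T and NK cells, cells known to carry Il18r1, Cxcr3, Il2ra and Ccr4, mostly had higher means in CD34- cells too. Of 16 in the table, 16 were higher on the high-fat and 14 on the low-fat diet, where Cd8a and Cd8b1 were lower. Of all 594 tested genes, 377 were higher on the high-fat and 218 on the low-fat diet by the sign of the difference. The summed level of these 16 genes was 4048 to 7865 in high-fat CD34- and 648 to 1733 in high-fat CD34+ samples. It was 4010 to 17965 in low-fat CD34- against 1802 to 3063 in low-fat CD34+ samples. The 17965 was that of the shallow low-fat CD34- replicate 3, while replicates 1 and 2 were at 6913 and 4010. Replicate 3 also held the highest low-fat CD34- values of Il18r1, Cxcr3, Il2ra and Ccr4. Of 15 tested, 10 passed as higher in the CD34- sort of high-fat mice (median 2.43), where 6.9% of all genes did. In that of low-fat mice 7 passed as higher (median 1.06, where 2.69% of all genes did), and 0 passed as lower on either diet. The 7 were Ncr1, Nkg7, Gzma, Gzmb, Prf1, Klrd1 and Eomes, with no Cd3 gene and not Cd4. With the mouse as a block the counts were 13 on the high-fat (16.7% of all genes) and 9 on the low-fat diet (6.23%). The sum over 3 B cell genes was 171 to 976 against 29.4 to 150 on the high-fat diet and 498 to 890 against 205 to 289 on the low-fat diet. Neutrophil genes lay the same way, with a sum over 4 genes of 289 to 354 in CD34- against 70.4 to 158 in CD34+ samples on the high-fat diet and 136 to 433 against 56.2 to 113 on the low-fat diet, and 2 of 4 were higher on each (Fpr1 and Csf3r, then Mmp8 and Csf3r). The sum over 4 macrophage genes was 4757 to 7564 in high-fat CD34- and 6868 to 11352 in high-fat CD34+ samples. Fibroblast genes lay the other way, at 186 to 304 in CD34- against 602 to 5161 in CD34+ samples on the high-fat and 54.6 to 93.7 against 293 to 712 on the low-fat diet. Of 5 fibroblast genes tested, 2 were lower in high-fat CD34- cells, where 2.02% of all genes were, and 3 in low-fat CD34- cells, where 7.07% were. The lowest recovered count of every sample was 1, so these values cannot show that a gene was absent. The part of these cell types in the receptor values was not tested. The labels describe a gate on CD11b and not a removal of lymphocytes.

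**Figure D5:**
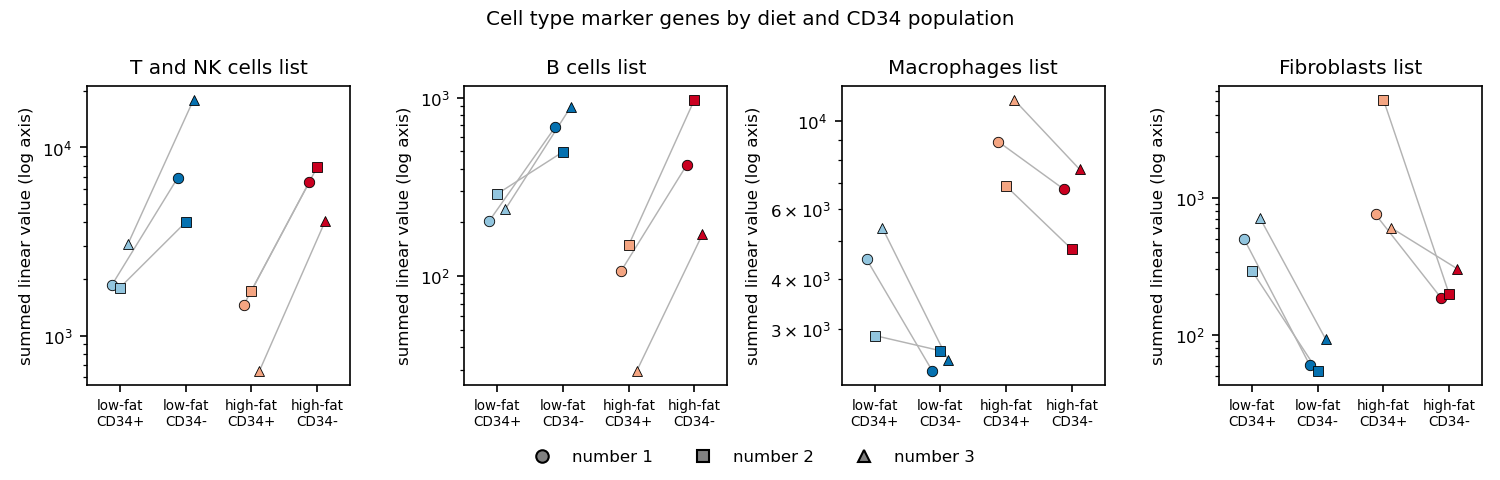
Summed linear level of marker genes of other cell types in each sample, by group, on a log axis. The T and NK cell sums of the CD34- samples lie above those of the CD34+ samples on both diets, and the fibroblast sum of high-fat CD34+ replicate 2 is 5161.

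Downstream genes were followed as lists. Of 8 tested JAK-STAT genes 0 passed in limma between populations on the high-fat diet (median 0.45, 1 at an unadjusted p under 0.05). With the mouse as a block 3 of 8 were higher in CD34- cells, where 16.7% of all genes were. They included Stat3, which carries interleukin-6 and interleukin-10 signals (0.55 ± 0.19, adjusted p = 0.0485), and the phosphatase gene Ptpn6 (0.63 ± 0.17, adjusted p = 0.0158). Stat3 and Ptpn6 each passed in 2 of 23 alternative settings, with differences down to 0.27 and 0.35. On the low-fat diet 1 of 8, Jak2, was lower in CD34- cells (-0.95 ± 0.23, adjusted p = 0.0207), where 7.07% of all genes were. With the block Ptpn6 was higher there (0.56 ± 0.17, adjusted p = 0.029), where 6.23% of all genes were, and it passed in 2 of 23 alternative settings. Of 14 NF-kB and TNF receptor signalling genes limma called 0 on the high-fat diet (median 0.18, 2 at an unadjusted p under 0.05). On the low-fat diet 4 were lower in CD34- cells (median -0.41), where 7.07% of all genes were, among them Relb, a subunit of NF-kB (-1.41 ± 0.38, adjusted p = 0.0294), Cflar, which restrains death receptor signals (-1.35 ± 0.35, adjusted p = 0.0266), and the adaptor gene Traf6 (-1.08 ± 0.30, adjusted p = 0.0317). With the block 5 were lower, where 15.8% of all genes were, with the kinase gene Ikbkb added (-0.76 ± 0.20, adjusted p = 0.0134). Ikbkb also passed with the block for the difference between diets in the population difference (1.35 ± 0.29, adjusted p = 0.0431), where 1.18% of all genes passed, and did not after re-centring (1.02, adjusted p = 0.477). The Jak2, Relb and Traf6 calls ended after re-centring (adjusted p = 0.0894, 0.0903 and 0.0903), and all 4 low-fat calls named here ended without single libraries, at adjusted p 0.0504 to 0.155. Leaving out low-fat CD34+ replicate 1 ended all 4. Low-fat CD34+ replicate 2 or CD34- replicate 1 ended those of Relb, Cflar and Traf6, low-fat CD34- replicate 2 those of Jak2, Cflar and Traf6, low-fat CD34- replicate 3 those of Relb and Traf6, and low-fat CD34+ replicate 3 that of Cflar. Limma called 0 genes of either list between diets in either population without a block, with 1 and 2 JAK-STAT and 5 and 5 NF-kB genes at an unadjusted p under 0.05 in CD34+ and CD34- cells. With the block Stat3 was higher on the high-fat diet in CD34- cells (0.97 ± 0.26, adjusted p = 0.0336), where 32 of all 594 genes were. It passed in 5 of 22 alternative settings. Of the 22 cytokine genes that were set aside, 7 were higher and 2 lower in high-fat CD34- than CD34+ cells, where 6.9% and 2.02% of all genes were. The low-fat counts were 6 and 4, against 2.69% and 7.07%. With the mouse as a block 7 were higher and 6 lower on the high-fat diet, where 16.7% and 7.24% of all genes were, and 6 higher and 9 lower on the low-fat diet, where 6.23% and 15.8% were.

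The authors' deposited table for the high-fat population comparison lists 135 genes, 17.8% of the panel, and includes Il18r1, Cxcr3, Il10ra, Cxcr4 and Il2ra, which are 23.8% of the 21 genes. All 5 share 1 of the authors' cluster numbers there. The authors' deposited tables for the low-fat population comparison (31 genes) and for diet in CD34+ cells (7 genes) list 0 of the 21. The authors' deposited table for diet in CD34- cells lists 117 genes, 15.4% of the panel, and 1 of the 21, Il33. The authors' rule for choosing genes is not given in the sources used.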

How the data were processed

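Counts from the nCounter Fibrosis V2 panel, after low-input amplification, had been normalized per sample by the authors and deposited as log2 values of 760 genes. The basis of that normalization is not given in the sources used. Each column was log2 of a whole number plus a constant for the sample, so whole counts were recovered. Values under 300 counts were whole within 0.02, and 98.0% to 99.7% of all values within 0.1. The authors' further deposited tables hold the same log2 values centred per gene, with the authors' own cluster number (unit other), for 4 comparisons.

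The log2 values were used as deposited. A model with 4 group means over all 12 samples was fitted with limma 3.58.1 (R 4.3.3, statmod 1.5.0), with eBayes and its trend option. Tests were two-sided, and Benjamini-Hochberg adjustment ran over the 594 genes that reached 20 or more on the linear scale in 3 or more samples, at a threshold of 0.05. The fit without a block was checked on simulated data with independent samples, which does not test the pairing of samples or the fits with a block. An exact permutation test of 3 against 3 cannot pass 0.05 and was not used per gene. Counts of replicates differed far beyond counting noise (lowest chi-square ratio to its degrees of freedom 15.2), so none were copies.

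Deviations from group means correlated at 0.306 to 0.434 between same-numbered samples of a diet and at -0.375 to 0.143 between others, so numbers pair samples within a diet. The number within a diet, taken as the mouse, was used as a random block (consensus correlation 0.448). Added after seeing the data, it was also used as a fixed term. What a pair shares besides its number is not stated outright in the labels. Values in every sample are given for genes that passed in any comparison with or without the block, and for those with the smallest p up to 3 per role. Members, lists and this rule were chosen with earlier results of these data known. Not every gene of the JAK-STAT list is reported here by name.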

Additional observations from a re-analysis of the deposited data

How the results depend on the processing

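Of 43 differences of single genes, 38 kept their direction in every alternative that gave a value. The other 5 had not passed. The low-fat population difference became -0.21 for Cxcr4 and -0.37 for Il2ra with both libraries that stand apart left out and -0.03 for Il2ra with voom, and the high-fat one of Cd34 became 0.07 with both left out. The difference between diets for Ccr4 became 0.48 with voom and 1.28 with both left out. When 1 library was left out, the low-fat population difference ran from -0.21 to 0.28 for Cxcr4, -0.37 to 0.54 for Il2ra and -0.56 to 0.02 for Ccr1, the high-fat one of Cd34 from -0.59 to 0.07, and the difference between diets for Ccr4 from -1.02 to 0.61. On the high-fat diet, 4 of the 16 tested genes differed between populations. The count was 2 with 20 added to linear values (Il18r1 and Il2ra), 2 with quantile normalization (Cxcr4 and Il18r1), 2 with no mean-variance trend (Cxcr3 and Il18r1), and 0 to 4 when 1 library was left out. On the low-fat diet the count of 0 became 1 after re-centring, 1 with quantile normalization (Il18r1 in both) and 0 without any one library. With the mouse as a replicate block it was 2 on the low-fat diet (Ccr4 and Il18r1), also 2 with re-centring and 2 as a fixed term, and 6 on the high-fat diet (with Ccr4 and Il17a added). The block changed no other call among the 16 genes. The diet count in CD34+ cells was 1 (Cxcr4) with both libraries that stand apart left out, and 0 without any one. In CD34- cells it was 1 (Il2ra) with both left out and 0 to 1 without any one. The cause of these changes was not tested. Counts of all genes called moved by over 1.5 times with the block, from 53 to 142 (high-fat) and 58 to 131 (low-fat) between populations and from 0 to 7 for the difference between diets. Under re-centring the diet calls in CD34- cells went from 30 to 17. Without both libraries that stand apart, all-gene calls were 90 between populations on the high-fat diet, 53 against 14 for diet in CD34+ cells and 45 against 30 in CD34- cells. With no mean-variance trend the high-fat population count was 35. Depth limits the genes with few counts, among them Il4, Il11 and Il27. Voom on recovered counts gave the same 4, 0, 0, 0 and 0 calls.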
